A study of Mus musculus with 6 samples.

Results

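Potassium channel genes were examined in kidney RNA of Tsc1-KO and WT mice. Gene symbols that begin with Kcn, a further letter and a number matched 58 genes of the expression table, and 56 remained after Kcnj1 and Kcnma1, the secretory channels of the collecting duct, were left out by the rule. These 56 genes are part of 15302 listed genes. By symbol they comprise 9 inward rectifiers (Kcnj), 6 two-pore-domain channels (Kcnk), 22 voltage-gated pore subunits (such as Kcna, Kcnc, Kcnh and Kcnq), 7 pore subunits opened by calcium, sodium or another signal inside the cell (Kcnn, Kcnt, Kcnu), 11 auxiliary subunits (Kcnab, Kcne, Kcnip, Kcnmb) and 1 noncoding transcript (Kcnq1ot1). The choice used no expression value, although it was made with earlier results of these data known.

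Both groups were kidneys taken at 45 days of age, and the labels name no treatment. WT mice, with 3 libraries (replicates 1 to 3), are labelled C57BL/6. Tsc1-KO mice, with 3 libraries (replicates 4 to 6), are labelled Tsc1f/f/Aqp2 Cre. Tsc1, a brake on the growth kinase complex mTORC1, is thus deleted where Aqp2 Cre is active. The study describes the knockout as specific to principal cells, which are cells of the collecting duct. Which kidney cells lost or kept Tsc1 was not measured here. The labels do not say whether WT mice were littermates or carried a floxed allele or Cre, so effects of strain, Cre and loss of Tsc1 cannot be told apart. They also do not state that each library came from a separate mouse, so the p-values measure the spread between these libraries, which may be technical.

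Poly A RNA was sequenced, and levels are in FPKM, a fragment density that corrects for the length of a transcript and the depth of a library. Each library held between 19568856 and 24647430 reads in the listed genes. Kidney identity was clear from 10 proximal tubule markers, whose FPKM summed to between 30070 and 42470 in all 6 libraries. WT replicate 3 was unlike WT replicates 1 and 2. Its Pearson correlation with WT replicates 1 and 2 over 13230 genes was 0.977 and 0.976, against 0.992 between those replicates. It held the lowest or the highest value of the 6 libraries in 17 of 28 potassium channel genes (14 lowest, 3 highest), or 60.7%, compared with 45.8% of all tested genes, and for the members that its absence moved most the values without it are given.

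Potassium channels let potassium leave or enter a cell along its gradient and so set the voltage across the membrane. In the kidney, basolateral channels return the potassium brought in by the sodium pump and hold the voltage that drives transport, whereas apical channels secrete potassium into the urine. Inward rectifiers and two-pore-domain channels carry the resting currents. Voltage-gated channels open on depolarisation, and auxiliary subunits change how a pore opens or where it sits.

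For the promoters, RefSeq (GRCm38.p6) held at least 1 promoter window, from 250 bases before to 50 bases after a transcript start, for 40 of the 56 genes. Kcnk3 and Kcnq1, the members that passed the test described below, had no window there. The sequences of Kcnc4 and Kcnj15 are shown so that the start regions of these genes can be compared. Reads of Kcnc4 came almost entirely from Tsc1-KO mice, and Kcnj15 was the most abundant member. Kcnc4 lies at chr3:107458849-107459148 on the minus strand, and Kcnj15 at chr16:95257308-95257607 on the plus strand. Capitals mark a forkhead core (TGTTTA, or TAAACA on the other strand), a motif of the family to which FOXI1, the master regulator of intercalated cells, belongs.
Kcnc4: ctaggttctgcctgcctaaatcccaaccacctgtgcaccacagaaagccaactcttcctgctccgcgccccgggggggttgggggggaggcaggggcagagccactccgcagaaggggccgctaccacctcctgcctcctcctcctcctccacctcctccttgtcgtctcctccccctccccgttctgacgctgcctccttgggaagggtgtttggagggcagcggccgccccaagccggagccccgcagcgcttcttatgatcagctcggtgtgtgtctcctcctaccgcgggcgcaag
Kcnj15: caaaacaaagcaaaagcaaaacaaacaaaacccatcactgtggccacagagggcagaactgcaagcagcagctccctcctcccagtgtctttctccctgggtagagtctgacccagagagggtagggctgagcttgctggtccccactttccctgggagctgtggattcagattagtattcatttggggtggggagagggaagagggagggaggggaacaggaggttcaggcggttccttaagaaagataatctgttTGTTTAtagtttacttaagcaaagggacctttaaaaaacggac

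The Kcnc4 window has a GC content of 66.7% and holds 17 CG pairs, compared with 49.7% and 2 CG pairs in the Kcnj15 window and a median GC content of 52.7% over all promoters. The forkhead core was found in 1 place in the Kcnj15 window, and neither it nor the E-box CACGTG was found in the Kcnc4 window. Among 59 promoter windows of the potassium channel genes, 5 windows of 5 genes held the forkhead core, or 8.47%. Of 32851 mouse promoter windows of the same length, 13.4% held the forkhead core and 7.15% the E-box. These matches describe letters only and do not show binding.

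A gene entered the test at a mean level of 0.5 FPKM or more across the 6 libraries. This left 28 of the 56 potassium channel genes and 13230 genes in all, compared with limma on log2(FPKM + 0.1), a scale that understates changes of low genes. In Tsc1-KO mice 2 of the 28 rose at an adjusted p under 0.05, Kcnk3 and Kcnq1, and 0 fell. This is 7.14% of the tested members, beside 2.11% of all tested genes called in either direction, 1.87% called higher and 0.234% called lower. The share rests on these 2 genes, and Kcnk3 reached the minimum only in Tsc1-KO mice, where it was higher. At an unadjusted p under 0.05 there were 7 members, 5 of them higher (Kcnk3, Kcnq1, Kcne1l, Kcnj10 and Kcnip3) and 2 lower (Kcne1 and Kcnj15), or 25.0% of the members beside 19.2% of all genes. By limma-voom on recovered reads, Kcnk3 and Kcnq1 again passed and 0 members fell, beside 1.96% of all genes called (1.63% higher and 0.325% lower). Without WT replicate 3, limma called 5 of 28 members, or 17.9%, beside 8.41% of all genes. Of these, 3 were higher (Kcnk3, Kcnq1 and Kcnk1), or 10.7% beside 5.38%, and 2 lower (Kcnj12 and Kcnj15), or 7.14% beside 3.03%. Kcnj12 reached the minimum only in WT mice, where its mean was higher. The median log2 fold change of the 28 members was 0.07, with 18 values above 0 and 10 below, and that of all tested genes was 0.04. With median-of-ratios scaling the members split into 14 above and 14 below 0, because 4 values within 0.04 of 0, those of Kcnk5, Kcnt1 and Kcnn2 among them, changed sign.

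**Figure D1:**
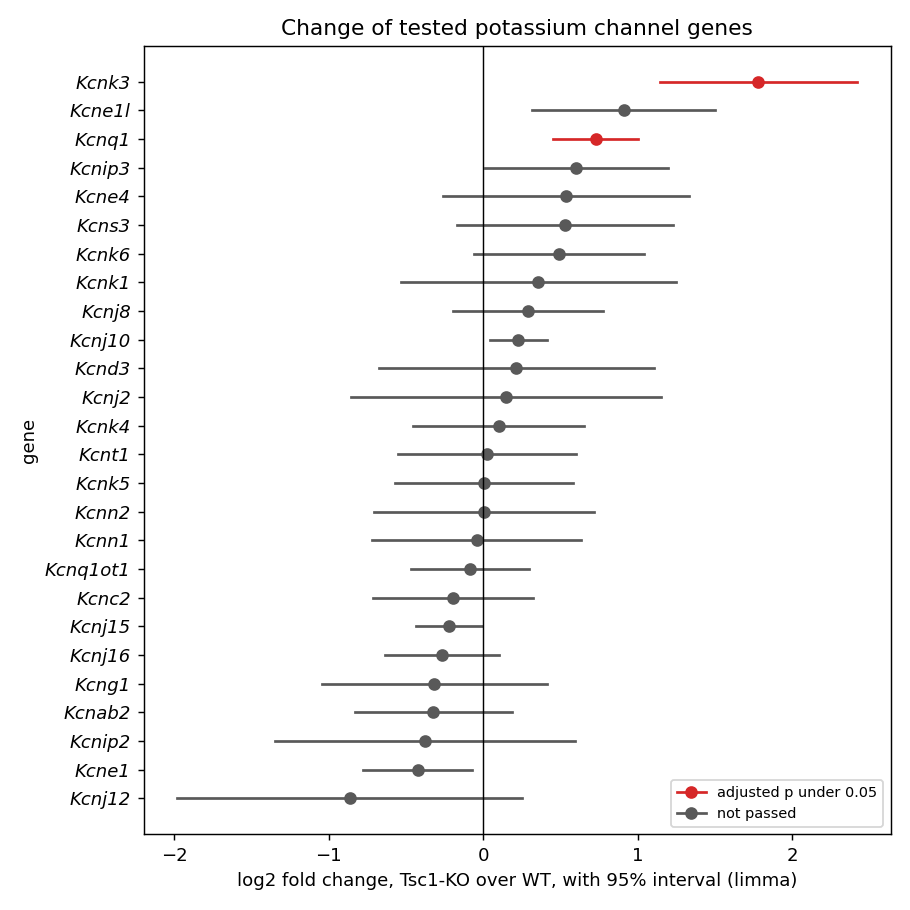
Log2 fold change of 26 of the 28 tested potassium channel genes, Tsc1-KO over WT (x axis), from limma, with genes on the y axis ordered by value and lines for 95% intervals. Kcnk3 and Kcnq1, in red, passed at an adjusted p under 0.05, and the intervals of most other genes span 0.

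Kcnk3, on chromosome 5, had the largest called increase among the tested members. It encodes a two-pore-domain channel closed by acid outside the cell, best known from the adrenal cortex and from smooth muscle of lung arteries. WT replicates 1, 2 and 3 had 0.294, 0.327 and 0.644 FPKM of Kcnk3, and Tsc1-KO replicates 4, 5 and 6 had 1.74, 1.65 and 1.48 FPKM. The groups did not overlap, and the lowest Tsc1-KO library at 1.48 FPKM, lay well above WT replicate 3, the highest WT library. The mean rose from 0.422 ± 0.193 FPKM to 1.62 ± 0.133 FPKM (SD, n = 3 each). In limma the log2 fold change was 1.78, with a standard error of 0.268, a 95% interval of 1.15 to 2.42 and an adjusted p of 0.0273. Its WT mean was below the minimum of 0.5 FPKM, so Kcnk3 entered the test only through the group where it is higher, as did 188 of the 13230 tested genes, and with no filter it was called as well (limma, adjusted p = 0.0247). These levels rest on 25, 28 and 53 reads in WT mice and 142, 123 and 139 reads in Tsc1-KO mice. Scaled for depth, the summed reads had a ratio of 3.86 (95% interval 3.11 to 4.82, counting error only).

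The Kcnk3 call held without WT replicate 3, where the log2 fold change was 2.07 (adjusted p = 0.00481 from limma). It was lost without each of the other libraries, with adjusted p from limma of 0.109 without WT replicate 1, 0.0642 without WT replicate 2 and 0.103, 0.109 and 0.117 without Tsc1-KO replicates 4, 5 and 6, while the log2 fold change stayed between 1.61 and 1.84. On log2(FPKM + 1) the change of this low gene was 0.89. The exons of Kcnk3 overlap those of Gm9899, a transcript on the opposite strand, over 229 bases or 5.76% of its exon length, and whether the counting used strand is not stated.

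Several cell type marker lists were set beside this change. The summed level of 10 A-intercalated cell markers was 136.3 to 172.4 FPKM in WT mice and 296.9 to 388.3 FPKM in Tsc1-KO mice. Of these, 8 of 10 genes were called higher, 1 was lower at an unadjusted p under 0.05 from limma, and none was listed at 0. Smooth muscle and pericyte markers summed to 55.8 to 66.4 FPKM in WT mice and 73.9 to 106.8 FPKM in Tsc1-KO mice. Among them 1 of 9 genes was called, and 6 of 9 were higher at an unadjusted p under 0.05 from limma, beside 13.4% of all tested genes. The adrenal cortex list summed to 0.963 to 1.595 FPKM in WT mice and 0.991 to 1.11 FPKM in Tsc1-KO mice, from the 2 of its 8 genes that had a value. Of the principal cell markers, 3 of 10 were called higher, and 1 was lower at an unadjusted p under 0.05 from limma. Their sum was 457.3, 497.3 and 578.7 FPKM in WT mice and 540.7, 576.8 and 572.7 FPKM in Tsc1-KO mice. WT replicates 1 and 2 thus lay below every Tsc1-KO library, and WT replicate 3 lay above them all. The part of these cells in the change of Kcnk3, or of any other member, was not tested. In RNA of whole kidney, more cells of a type and more RNA per cell cannot be told apart.

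**Figure D2:**
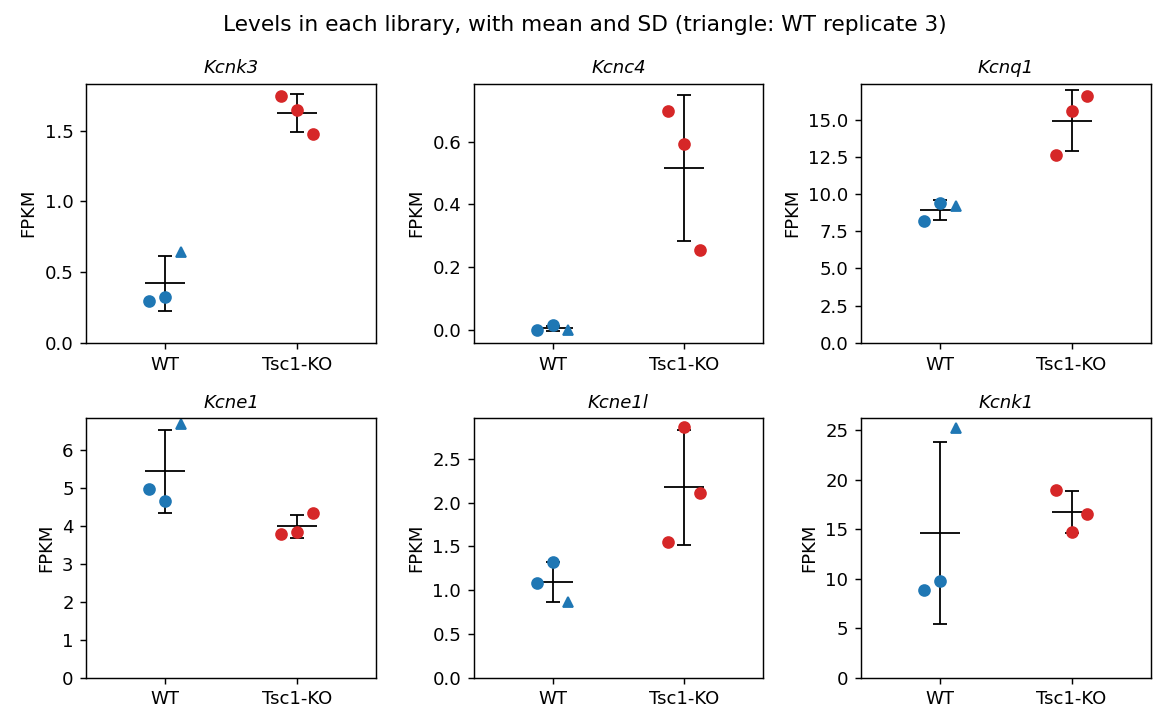
FPKM (y axis, from 0) of 6 potassium channel genes in WT and Tsc1-KO libraries, with points for libraries, a triangle for WT replicate 3, horizontal lines for means and bars for SD (n = 3). The groups are apart for Kcnk3, Kcnc4, Kcnq1, Kcne1 and Kcne1l, and WT replicate 3 lies above all Tsc1-KO libraries for Kcnk1.

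The other two-pore-domain genes included 2 of the 5 most abundant members. Kcnk5, which encodes an alkaline-activated channel of the proximal tubule, was at 47.8, 31.5 and 44.8 FPKM in WT mice and at 53.0, 44.2 and 29.3 FPKM in Tsc1-KO mice. The groups overlapped throughout, and the log2 fold change was 0.01 (95% interval -0.57 to 0.58, adjusted p = 0.992 from limma), with a sign that turned under median-of-ratios scaling. Kcnk1 encodes a weakly conducting channel of tubule cells. Its level in WT replicate 3 was 25.2 FPKM, the highest of the 6 libraries, compared with 8.87 and 9.79 FPKM for the other WT replicates. Tsc1-KO libraries lay between, at 19.0, 14.8 and 16.6 FPKM. The log2 fold change of Kcnk1 was 0.36 (adjusted p = 0.659 from limma) with all libraries and 0.83 (adjusted p = 0.0152 from limma) without WT replicate 3, so that this 1 library decided the call.

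Kcnk6, a relative of Kcnk1 that reached the minimum in Tsc1-KO mice only, was at 0.361, 0.479 and 0.407 FPKM in WT mice and at 0.766, 0.475 and 0.655 FPKM in Tsc1-KO mice, and the groups overlapped at 1 library (log2 fold change 0.49, adjusted p = 0.312 from limma). Kcnk4, which opens when the membrane is stretched, had a log2 fold change of 0.10 and ranged from 0.499 to 0.935 FPKM. Kcnk2, another stretch-sensitive channel, was below the minimum, at 0.536, 0.480 and 0.532 FPKM in WT mice and at 0.425, 0.453 and 0.408 FPKM in Tsc1-KO mice, so that all Tsc1-KO values were lower. The median log2 fold change of the 5 tested two-pore-domain genes was 0.36. All 5 values were above 0 in limma on FPKM, beside 7916 of all 13230 tested genes, and 4 of 5 were with median-of-ratios scaling. Kcnk3 and Kcnk6 entered the test only through Tsc1-KO mice, where their means were higher, and the minimum left Kcnk2 out. The signs of this class therefore depend in part on the filter.

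Kcnq1, on chromosome 7, was the other gene that rose. Its product is the pore of a slow voltage-gated channel of the heart and of epithelia, where the partner subunit sets its gating. WT replicates 1, 2 and 3 had 8.17, 9.38 and 9.23 FPKM of Kcnq1, and Tsc1-KO replicates 4, 5 and 6 had 12.6, 15.6 and 16.6 FPKM. The 3 Tsc1-KO libraries lay above the 3 WT libraries, and WT replicate 3 was close to WT replicate 2. The mean went from 8.93 ± 0.660 FPKM to 14.9 ± 2.05 FPKM (SD, n = 3 each), a log2 fold change of 0.73 (standard error 0.116, 95% interval 0.45 to 1.004, adjusted p = 0.0325 from limma). Behind these levels were 553, 638 and 604 reads in WT mice and 818, 923 and 1238 reads in Tsc1-KO mice.

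The Kcnq1 call held when WT replicate 3 (limma, adjusted p = 0.0263) or Tsc1-KO replicate 4 (limma, adjusted p = 0.0253) was left out. It was lost without WT replicate 1 or 2 (adjusted p of 0.126 and 0.0637 from limma), without replicate 5 or 6 of the Tsc1-KO mice (0.124 and 0.133), and in limma with no variance trend (adjusted p = 0.0531), with log2 fold changes of 0.65 to 0.84 over all alternatives. Kcnq1ot1, the noncoding transcript that runs opposite to Kcnq1 in an imprinted gene cluster, was at 0.9003, 0.848 and 0.728 FPKM in WT mice and at 0.760, 0.787 and 0.763 FPKM in Tsc1-KO mice (log2 fold change -0.09, adjusted p = 0.819 from limma). Its exons overlap those of Kcnq1 over 121 bases, or 2.96% of the exon length of Kcnq1, so reads in that stretch cannot be assigned where strand is not used.

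Kcne1 encodes the small partner subunit that slows Kcnq1 channels. It lay on the other side of the comparison, at 4.96, 4.67 and 6.69 FPKM in WT mice and at 3.78, 3.85 and 4.33 FPKM in Tsc1-KO mice. All Tsc1-KO values were below all WT values, but the log2 fold change of -0.42 (95% interval -0.78 to -0.07) did not pass (adjusted p = 0.190 from limma). Without WT replicate 3, the highest library, it was -0.27 (limma, adjusted p = 0.147). The level of Kcne1 relative to Kcnq1 in the same library was 0.608, 0.498 and 0.725 in WT mice and 0.299, 0.248 and 0.261 in Tsc1-KO mice. Its mean was 0.610 ± 0.113 in WT mice and 0.269 ± 0.0268 in Tsc1-KO mice (SD, n = 3 each), a difference of -1.17 in log2. The groups did not overlap, and the exact permutation test, 2-sided, gave p = 0.1, the smallest that 3 against 3 libraries allow. This ratio was formed after the levels of both genes had been seen and compares amounts of RNA over the whole kidney, not within a cell.

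Kcne1l encodes a related small subunit that restrains Kcnq1 channels in heterologous cells. It was at 1.08, 1.32 and 0.864 FPKM in WT mice and at 1.55, 2.86 and 2.10 FPKM in Tsc1-KO mice. The groups did not overlap, and the log2 fold change of 0.91 (standard error 0.250) missed the threshold (adjusted p = 0.120 from limma). Relative to Kcnq1, Kcne1l overlapped between the groups, at 0.133, 0.141 and 0.0936 in WT mice and at 0.123, 0.184 and 0.127 in Tsc1-KO mice (p = 0.6, exact permutation test, 2-sided).

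**Figure D3:**
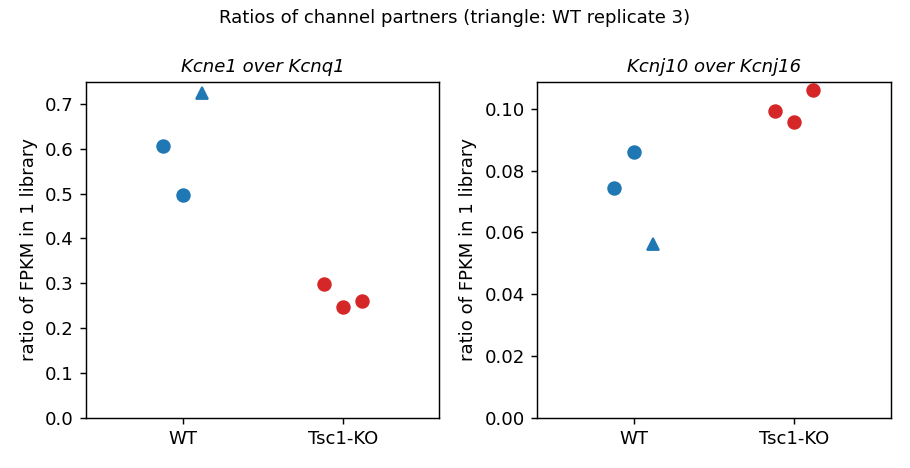
Ratios of FPKM in the same library (y axis, from 0) for Kcne1 over Kcnq1 and for Kcnj10 over Kcnj16, with 1 point for each WT and Tsc1-KO library and a triangle for WT replicate 3. Kcne1 over Kcnq1 lay at or below 0.299 in Tsc1-KO mice and at or above 0.498 in WT mice, whereas Kcnj10 over Kcnj16 was higher in Tsc1-KO mice.

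Kcnc4 encodes a voltage-gated pore subunit that opens and inactivates fast. Its mean was below the minimum for testing, and it is named because its values had been seen. WT replicates 1 and 3 are listed at 0 for Kcnc4, and WT replicate 2 had 1 read, or 0.0148 FPKM. Tsc1-KO replicates 4, 5 and 6 had 45, 35 and 19 reads, or 0.698, 0.594 and 0.256 FPKM. Thus 99 of its 100 reads came from Tsc1-KO mice, and the depth-scaled ratio was 100 with a 95% interval of 17.6 to 3997, for counting error only. With no filter on low values Kcnc4 had a log2 fold change of 2.47 with a standard error of 0.317 (limma, adjusted p = 0.0193). It then joined Kcnk3 and Kcnq1 as 1 of 3 members called among 56, all higher, or 5.36%, beside 1.99% of all 15302 genes called in either direction and 1.76% called higher.

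Other voltage-gated pore genes did not pass. Kcng1, a silent subunit that modifies other pores, was at 2.65, 1.67 and 1.80 FPKM in WT mice and at 1.49, 1.08 and 2.45 FPKM in Tsc1-KO mice (log2 fold change -0.32, adjusted p = 0.633 from limma). Kcns3, another silent subunit, had a log2 fold change of 0.53 (limma, adjusted p = 0.380) and reached 1.30 FPKM in Tsc1-KO replicate 6. Kcnd3 and Kcnc2 had log2 fold changes of 0.22 and -0.20, neither of which passed. Of the 22 genes of this class 15 were below the minimum. Kcna1, a channel described at the apical membrane of the distal convoluted tubule, was among them, at 0.688, 0.243 and 0.0722 FPKM in WT mice and at 0.0625, 0.125 and 0.118 FPKM in Tsc1-KO mice. The 3 WT libraries alone spanned almost the whole range of Kcna1, with 138, 49 and 14 reads, compared with 12, 22 and 26 reads in Tsc1-KO mice.

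**Figure D4:**
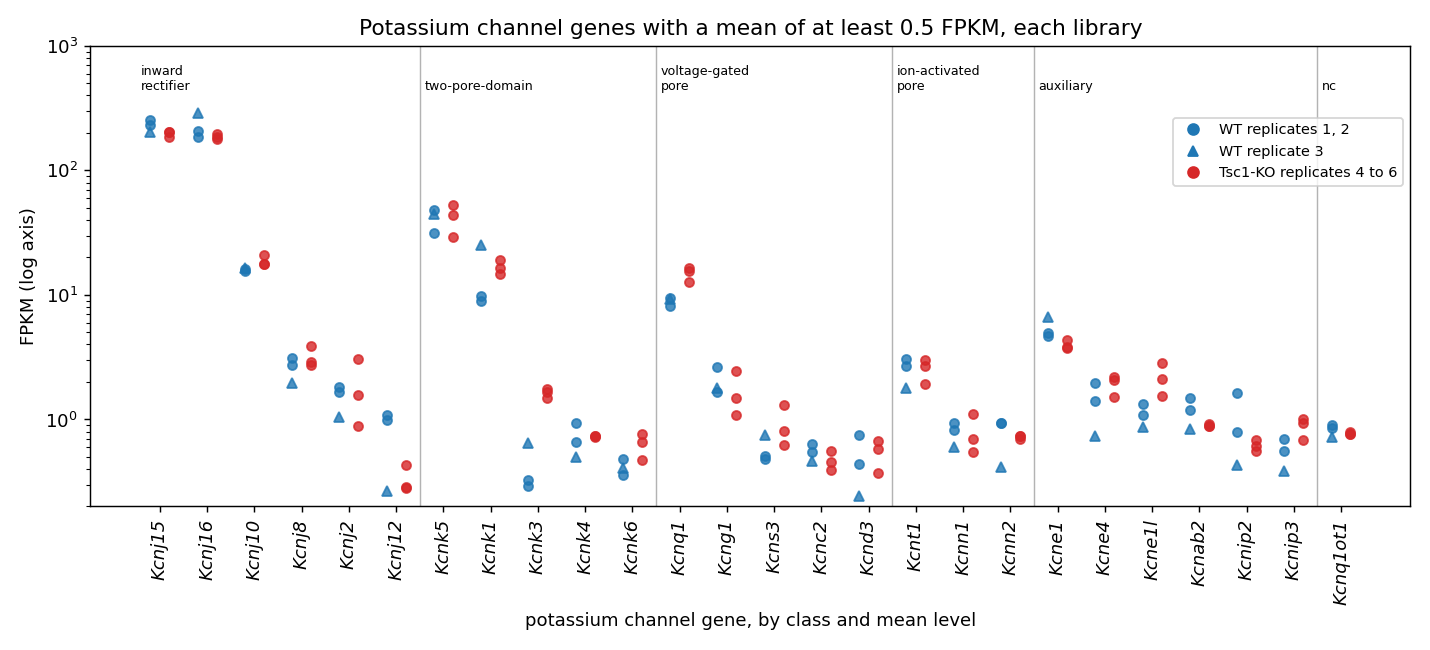
FPKM on a log axis of 26 of the 28 tested potassium channel genes in each library, grouped by class (nc, noncoding) and ordered by mean level, with WT in blue, WT replicate 3 as a triangle and Tsc1-KO in red. Kcnj15 and Kcnj16 lie at 179.0 FPKM or above in all 6 libraries, and most members are below 10 FPKM.

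Inward rectifiers were by far the most abundant potassium channel transcripts. Kcnj15 encodes a basolateral channel of the proximal tubule and was at 252.7, 232.3 and 202.5 FPKM in WT mice and at 202.3, 184.7 and 202.0 FPKM in Tsc1-KO mice. All Tsc1-KO values were below all WT values, although the gap between WT replicate 3 and Tsc1-KO replicate 4 was very small. The log2 fold change was -0.22 (95% interval -0.43 to -0.004, adjusted p = 0.254 from limma), and without WT replicate 3 it was -0.31 and passed (adjusted p = 0.0478 from limma). Beside this, the 10 proximal tubule markers had a median log2 fold change of -0.18, with 2 lower at an unadjusted p under 0.05 from limma and their sum overlapping between the groups, and their part in the level of Kcnj15 was not tested. Kcnj16, which forms the basolateral channel of the distal convoluted tubule together with Kcnj10, was at 208.6, 187.0 and 290.6 FPKM in WT mice and at 179.0, 185.7 and 195.7 FPKM in Tsc1-KO mice (log2 fold change -0.27, adjusted p = 0.403 from limma). The groups overlapped, WT replicate 3 was far above the rest, and without it the log2 fold change was -0.08 (limma, adjusted p = 0.495).

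Kcnj10, the other subunit of that channel, was at 15.6, 16.1 and 16.3 FPKM in WT mice and at 17.8, 17.8 and 20.8 FPKM in Tsc1-KO mice. The groups did not overlap, and the log2 fold change of 0.23 (95% interval 0.04 to 0.41) did not pass (adjusted p = 0.183 from limma). Kcnj10 relative to Kcnj16 was 0.0745, 0.0861 and 0.0562 in WT mice and 0.0994, 0.0959 and 0.106 in Tsc1-KO mice. The mean ratio was 0.0723 ± 0.0151 and 0.101 ± 0.00516 (SD, n = 3 each), with no overlap and p = 0.1 by exact permutation. As with Kcne1 over Kcnq1, this ratio was formed after the levels of both genes had been seen, and it pairs a gene that was higher in each Tsc1-KO library with one whose mean was lower. Kcnj10 over Kcnj16 likewise compares RNA over the whole kidney, where Kcnj16 had a mean of 207.8 FPKM and Kcnj10 of 17.4 FPKM. The balance of subunits within their shared channel was not tested. Kcnj15 relative to Kcnj16 was 1.21, 1.24 and 0.697 in WT mice and 1.13, 0.995 and 1.03 in Tsc1-KO mice. These groups overlapped through WT replicate 3 alone, and WT replicates 1 and 2 lay above every Tsc1-KO library.

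The other inward rectifiers were far lower. Kcnj8, the pore of the ATP-sensitive channel of vascular smooth muscle, was at 3.11, 2.72 and 1.96 FPKM in WT mice and at 2.88, 2.75 and 3.90 FPKM in Tsc1-KO mice (log2 fold change 0.29, adjusted p = 0.496 from limma). Leaving out WT replicate 3 brought that value to 0.11, and leaving out Tsc1-KO replicate 6 to 0.14. Kcnj2, a strong rectifier that holds the resting voltage of muscle, ranged from 1.05 to 1.82 FPKM in WT mice and from 0.893 to 3.09 FPKM in Tsc1-KO mice, with a log2 fold change of 0.15 whose sign turned without WT replicate 3 or Tsc1-KO replicate 5. Kcnj12, a close relative of Kcnj2 that reached the minimum in WT mice only, was at 0.989, 1.09 and 0.265 FPKM in WT mice and at 0.287, 0.282 and 0.432 FPKM in Tsc1-KO mice. WT replicate 3 thus lay with the Tsc1-KO libraries, and the log2 fold change was -0.86 (adjusted p = 0.371 from limma) with it and -1.41 (adjusted p = 0.0242 from limma) without it. Kcnj13, Kcnj5 and Kcnj11 were below the minimum, with overlapping groups. Exons of Kcnj13 overlap those of Gigyf2 on the opposite strand over 49.1% of their length, so its value is uncertain.

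Summed over all 56 genes, potassium channel transcripts were at 584.6, 531.9 and 623.1 FPKM in WT mice and at 524.2, 507.5 and 527.1 FPKM in Tsc1-KO mice. The mean was 579.9 ± 45.8 FPKM in WT mice and 519.6 ± 10.6 FPKM in Tsc1-KO mice (SD, n = 3 each, p = 0.1 by exact permutation, 2-sided). Kcnj15 and Kcnj16 made up 78.9, 78.9 and 79.1% of this sum in WT mice and 72.7, 73.0 and 75.4% in Tsc1-KO mice. Inward rectifiers together summed to 483.7, 442.2 and 513.3 FPKM in WT mice and to 404.2, 395.3 and 425.0 FPKM in Tsc1-KO mice. These groups did not overlap either. Neither sum holds Kcnj1, an inward rectifier left out by the rule. It was at 67.7, 73.1 and 90.1 FPKM in WT mice and at 83.8, 94.3 and 90.5 FPKM in Tsc1-KO mice. With Kcnj1 added, both the total and the inward rectifier sum would overlap between the groups, through WT replicate 2 alone. For the inward rectifier sum this overlap, with Tsc1-KO replicate 6, would be very small. In both sums WT replicates 1 and 3 would still lie above every Tsc1-KO library. Voltage-gated pore genes summed to 24.4, 26.3 and 22.5 FPKM in WT mice and to more in each Tsc1-KO library, at 27.5, 32.1 and 33.8 FPKM (p = 0.1, exact permutation), and Kcnq1 alone had the larger part of that difference. For these sums the exact permutation p of 0.1 is the smallest the design can give. Sums of the two-pore-domain (p = 0.7), ion-activated (p = 0.9) and auxiliary genes (p = 0.8, exact permutation for all 3) overlapped between the groups.

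**Figure D5:**
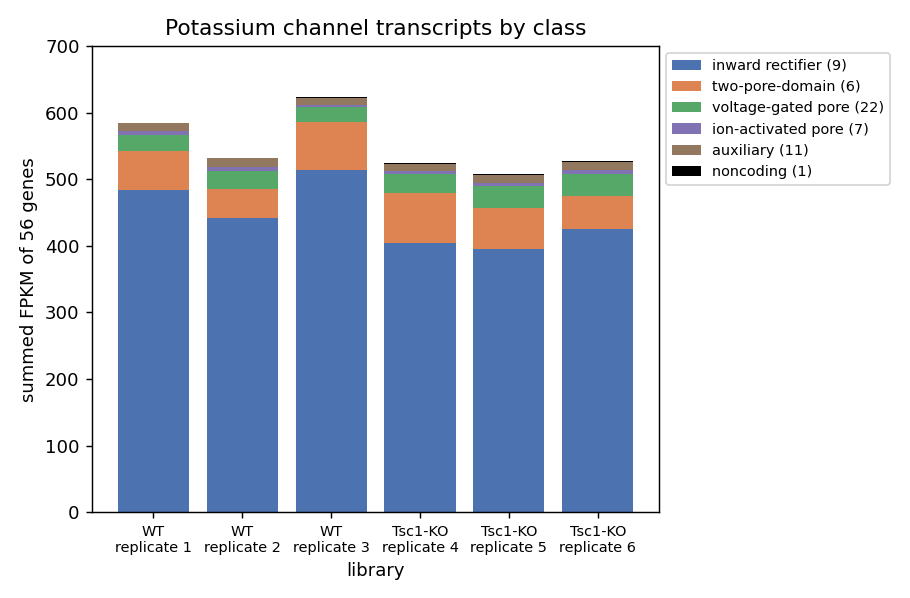
Summed FPKM of the 56 potassium channel genes (y axis, from 0) in each of the 6 libraries (x axis), stacked by class, with the number of genes of each class in the key. Inward rectifiers make up 82.4 to 83.1% of the sum in WT mice and 77.1 to 80.6% in Tsc1-KO mice.

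Pore subunits opened by ions inside the cell were low and did not pass. Kcnt1, a sodium-activated channel, was highest among them, at 2.71, 3.04 and 1.77 FPKM in WT mice and at 1.91, 2.69 and 3.01 FPKM in Tsc1-KO mice (log2 fold change 0.03, 95% interval spanning 0), and its sign turned under median-of-ratios scaling. Kcnn1 and Kcnn2, calcium-activated channels of small conductance, had log2 fold changes of -0.04 and 0.01. Kcnn4, the calcium-activated channel of intermediate conductance in epithelia and blood cells, was below the minimum, at 0.248, 0.176 and 0.165 FPKM in WT mice and at 0.111, 0.283 and 0.337 FPKM in Tsc1-KO mice, with groups that overlapped. Kcnt2, Kcnn3 and Kcnu1 were also below it.

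Among the other auxiliary subunits, Kcnip3, a calcium-binding partner of voltage-gated channels, was at 0.691, 0.555 and 0.389 FPKM in WT mice and at 0.938, 0.679 and 1.001 FPKM in Tsc1-KO mice. The groups overlapped at 1 library, and the log2 fold change of 0.60 did not pass (adjusted p = 0.253 from limma). Kcne4, which inhibits several voltage-gated channels, had a log2 fold change of 0.54 (limma, adjusted p = 0.439), with WT replicate 3 lowest at 0.733 FPKM. Neither Kcnab2, at a log2 fold change of -0.32, nor Kcnip2, at -0.38, passed.

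Groups that did not overlap were also counted. Of the 28 tested members, 4 were higher in all Tsc1-KO libraries (Kcnk3, Kcnq1, Kcnj10 and Kcne1l), or 14.3% beside 17.3% of all tested genes, and 2 were lower (Kcnj15 and Kcne1), or 7.14% beside 8.07%. With median-of-ratios scaling the members' counts stayed at 4 and 2, beside 12.6% and 12.8% of all genes, so that neither share can be ranked against that of all genes. Leaving out WT replicate 2 gave a first count of 8, or 32.0% beside 25.7% of all genes, and leaving out Tsc1-KO replicate 5 gave 7, or 25.9% beside 21.7%. The second count became 7 when WT replicate 3 was left out, or 25.0% beside 19.6%, and 4 when Tsc1-KO replicate 6 was, or 15.4% beside 11.7%. Of the 28 members below the minimum, 3 were higher without overlap (Kcnc4, Kcne3 and Kcnmb1), or 10.7% beside 14.2% of the 2072 genes below it, and 2 were lower (Kcnk2 and Kcnab3), or 7.14% beside 4.92%. Kcne3, another partner of Kcnq1, was at 0.280, 0.0858 and 0.112 FPKM in WT mice and at 0.315, 0.295 and 0.391 FPKM in Tsc1-KO mice. Kcnmb1, the smooth muscle subunit of the BK channel, was at 0.299, 0.393 and 0.166 FPKM in WT mice and at 0.458, 0.403 and 0.397 FPKM in Tsc1-KO mice. The gaps of Kcne3 and Kcnmb1 were very small, and their reads, before scaling for depth, overlapped. Kcne3 had 13 reads in WT replicate 1 and 12 in Tsc1-KO replicate 5. Kcnmb1 had 37 reads in WT replicate 2 and 33 in Tsc1-KO replicate 5. Kcnab3, a cytoplasmic beta subunit, was at 0.441, 0.456 and 0.493 FPKM in WT mice and at 0.369, 0.363 and 0.368 FPKM in Tsc1-KO mice. These genes were named after their values had been seen. The other 23 genes below the minimum had groups that overlapped and means of at most 0.451 FPKM, down to 0.0515 FPKM for Kcna2.

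To place the channels among other genes of potassium handling, a list of 35 partners was examined, of which 32 were tested. Higher calls by limma numbered 5, or 15.6% beside 1.87% of all tested genes, and lower calls 0. At an unadjusted p under 0.05 there were 14 higher, or 43.8% beside 13.4% of all genes, and 1 lower, or 3.12% beside 5.72%. Limma-voom called 4 higher and 0 lower. The median log2 fold change of the list was 0.20 beside 0.04 over all genes. The called genes were Atp12a and Atp4a, catalytic subunits of proton-potassium pumps, Scnn1b and Scnn1g, subunits of the epithelial sodium channel whose current drives potassium secretion, and Lrrc52, an auxiliary subunit of large-conductance channels. Atp12a was at 0.0566, 0.0451 and 0.141 FPKM in WT mice and at 1.36, 2.08 and 2.10 FPKM in Tsc1-KO mice (log2 fold change 3.44, adjusted p = 0.00696 from limma), and it too reached the minimum in Tsc1-KO mice only. Lrrc52 was at 0.944, 1.21 and 1.55 FPKM in WT mice and at 2.47, 2.65 and 3.21 FPKM in Tsc1-KO mice (log2 fold change 1.12, adjusted p = 0.0410 from limma). Log2 fold changes were 0.66 for Scnn1b, 0.57 for Scnn1g and 0.65 for Atp4a. With WT replicate 1, 2 or 3 left out, the number of partners called was 1, 3 and 12, and with Tsc1-KO replicate 4 left out it was 2. It was 0 in limma without Tsc1-KO replicate 5 (11 at an unadjusted p under 0.05) and without Tsc1-KO replicate 6 (12 at an unadjusted p under 0.05), where limma-voom called 1 in each case.

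Both secretory channels left out by the rule belong to this partner list. Kcnj1, the apical secretory channel of the thick limb and collecting duct, was at 67.7, 73.1 and 90.1 FPKM in WT mice and at 83.8, 94.3 and 90.5 FPKM in Tsc1-KO mice (log2 fold change 0.23, adjusted p = 0.324 from limma). Kcnma1, the pore of the flow-dependent BK channel, was below the minimum, at 0.422, 0.415 and 0.265 FPKM in WT mice and at 0.282, 0.281 and 0.1504 FPKM in Tsc1-KO mice. The groups overlapped for both channels, in each case through WT replicate 3 alone. WT replicates 1 and 2 lay below every Tsc1-KO library for Kcnj1 and above every one for Kcnma1.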

How the data were processed

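Kidney poly A RNA of 3 WT and 3 Tsc1-KO libraries was sequenced on an Illumina HiSeq system. FPKM for 15302 genes were deposited by the authors, whose tools were HISAT2 2.0.4 for alignment and HTSeq 0.9.1 for expression levels. The genome build, the annotation and the use of strand are not given in the sources used here. The authors also deposited columns of mean normalised counts (a signal), the fold (a ratio of Tsc1-KO over WT), its log2, and the p-value and adjusted p-value of their comparison. The comparison columns, and 2 further lists of genes the authors deposited as higher or lower, were not used.

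Values entered limma 3.58.1 (R 4.3.3) as log2(FPKM + 0.1). The filter kept genes whose mean across libraries reached 0.5 FPKM. The model held genotype alone and used all 6 libraries, with empirical Bayes moderation, a variance trend and 2-sided p-values, adjusted by Benjamini-Hochberg over 13230 genes. Because FPKM are not counts, limma took the place of the Student test that the study's methods name in general. Whole reads were recovered by use of the mean normalised counts for scale, and of the 90140 values that came to 10000 reads or fewer, 100% were whole at a tolerance of 0.02 reads. Ratios of reads carry exact binomial intervals (Clopper-Pearson, scipy 1.17.1), which cover counting error only. Sums and ratios were compared with exact permutation tests over every split of the 6 libraries into 3 and 3, written in Python 3.11.15. Python also drew the tables and figures with numpy 2.4.6, pandas 2.3.3 and matplotlib 3.10.9.

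The rule for named genes took every member that passed, the 12 tested members with the highest mean, the 10 with the smallest p, and 9 known channels of kidney tubules, which gave 20 genes. Single results on 2 members, 1 of them under this rule, are not reported here, though both enter every count and sum. Other members were named after their values were seen, to account for all 56. The members, the partner list and the marker lists, both written from textbook knowledge, were chosen with earlier results of these data known. Planned protein sequences are not used here. Exon overlaps were read from GENCODE M21 and promoter windows from RefSeq. The 12 alternatives were a pseudocount of 1 FPKM, no filter, a mean of at least 1 FPKM, no variance trend, median-of-ratios scaling, limma-voom on the recovered reads, and leaving out each of the 6 replicates. Limma-voom with each replicate left out was added after the data had been seen.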

Additional observations from a re-analysis of the deposited data

How the results depend on the processing

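No paired analysis was run. The replicate numbers (1 to 3 in WT, 4 to 6 in Tsc1-KO) name no pairs, and the labels do not say whether WT mice were littermates. For 17 named genes that were tested, 196 values were recomputed under 12 alternatives, and 171 kept their direction and their side of the threshold, 12 changed sign, 10 lost the call and 3 gained it. The 10 losses were of Kcnk3 and Kcnq1, each of which passed in 7 of 12 alternatives, at log2 fold changes of 0.89 to 2.07 and of 0.65 to 0.84. The 3 gains, of Kcnk1, Kcnj15 and Kcnj12, all came without WT replicate 3. The signs that changed belonged to 3 genes. Kcnk5 was at -0.041 with median-of-ratios scaling, -0.037 with limma-voom, and -0.178, -0.180 and -0.049 without WT replicate 2 and Tsc1-KO replicates 4 and 5 (range with 1 replicate left out -0.180 to 0.247). Kcnt1 was at -0.018 and -0.013 in the same 2 fits, and at -0.195, -0.027 and -0.104 without WT replicate 3 and Tsc1-KO replicates 5 and 6 (range to 0.211). Kcnj2 was at -0.080 and -0.289 without WT replicate 3 and Tsc1-KO replicate 5 (range to 0.552). Kcnip3, Kcnk6, Kcnj12 and Kcns3 fell below the minimum under some alternatives and have no value there.

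The number of potassium channel genes called was 1 with no variance trend and 0 to 5 with 1 replicate left out, against 2, by limma and by limma-voom alike. Those called higher were 1 with no variance trend and 0 to 3 with 1 replicate left out, and those called lower 0 to 2. Beside the counts of 0, without WT replicates 1 and 2 and Tsc1-KO replicates 5 and 6, the members with an unadjusted p under 0.05 were 18.5, 28.0, 22.2 and 15.4% of those tested, and all genes 12.8, 18.7, 14.1 and 13.4%. Over all genes the calls ranged from 0 to 1115 with 1 replicate left out (0 to 713 higher, 0 to 402 lower), against 279, and by limma-voom were 0, 88 and 1241 without WT replicates 1, 2 and 3 and 126, 59 and 51 without Tsc1-KO replicates 4, 5 and 6. The 0 by limma came without Tsc1-KO replicate 6, where the unadjusted p was under 0.05 for 1767 genes, and the 0 by limma-voom came without WT replicate 1, where limma called 29. Lower calls were 18 with no variance trend, against 31. Partner genes called ranged from 0 to 12 with 1 replicate left out, against 5. Members higher without overlap were 7 with no filter (12.5% beside 16.9% of all genes) and 4 to 8 with 1 replicate left out (15.4 to 32.0% beside 19.9 to 27.9%), against 4, and those lower 4 with no filter (7.14% beside 7.65%) and 2 to 7 (7.41 to 25.0% beside 10.7 to 19.6%), against 2. Each fit with 1 replicate left out has fewer libraries, and the cause of the remaining shifts was not tested. The median log2 fold change of all genes lay between -0.007 and 0.054 under all 12 alternatives. The levels of Kcnk3 and Kcnc4 rest on 106 and 1 reads in WT mice.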
